A study of Nicotiana tabacum with 9 samples.

Results

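Among the tobacco genes transcribed in pollen, 177 were lower in every *ATG2*-silenced library and higher in every *ATG5*-silenced library than in every WT library. They were selected on these measured values. After the libraries were brought to a common scale, an annotated gene was taken when its mean in WT pollen lay between 1 and 500 FPKM, when the 3 genotypes did not overlap in the order *ATG2*-silenced, WT, *ATG5*-silenced, and when the WT mean exceeded that of *ATG2*-silenced pollen, and the mean of *ATG5*-silenced pollen that of WT, by at least 25%. FPKM, the unit of the deposited tables, relates the fragments of a gene to its transcript length and to all mapped fragments of the library. 1 gene that met these limits, *MPK11*, was left out by the definition of the group. The 177 genes were 1.17% of the 15190 annotated genes of that WT level, out of 69099 annotated genes and 76785 identifiers in the tables. Since the order of the 3 genotypes defined the group, the sizes of its steps are a description and carry no test.

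The pollen came from *Nicotiana tabacum* cv. Petite Havana SR1 grown in a glasshouse, with 3 libraries each of *ATG2*-silenced, *ATG5*-silenced and WT pollen, 9 in all. The silenced plants carry an RNAi construct against 1 gene of the autophagy machinery, and the promoter of the construct and the number of independent lines are not given in the sources used here. The labels place all samples at the bicellular stage, at which a pollen grain holds a vegetative and a generative cell, and call the replicates independent. In bulk pollen, a lower share of one cell type and less RNA per cell cannot be told apart.

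Autophagy is the process by which a cell encloses part of its cytoplasm in a double membrane, the autophagosome, and delivers it to the vacuole for breakdown. ATG5 is joined to ATG12 and helps to attach ATG8 to the growing membrane, whereas ATG2 transfers lipids from the endoplasmic reticulum to that membrane. Both proteins serve the same pathway at different steps. Pollen stores RNA, sugars and membranes before it germinates, and silencing of either gene in tobacco was studied for its effect on germination.

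The silenced genes were low in their own lines. *ATG2* was at 0.188, 0.270 and 0.180 scaled FPKM in *ATG2*-silenced pollen, against 1.20, 1.06 and 0.863 scaled FPKM in WT. *ATG5* was at 0.240, 0.293 and 0.126 scaled FPKM in *ATG5*-silenced pollen, against 1.06, 1.53 and 1.53 scaled FPKM in WT. Neither overlapped WT in its own line. Read counts were not part of the tables, and the sequencing depth of a value is unknown. The values sum to between 904845 and 1030770 FPKM per library, and 38341 to 41279 identifiers had a value above 0. The 3 *ATG2*-silenced libraries and WT replicate 3 carry 1 decimal and the other libraries 2, which makes the values of the 38 genes of the group with a WT mean under 2 FPKM coarse.

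**Figure D1:**
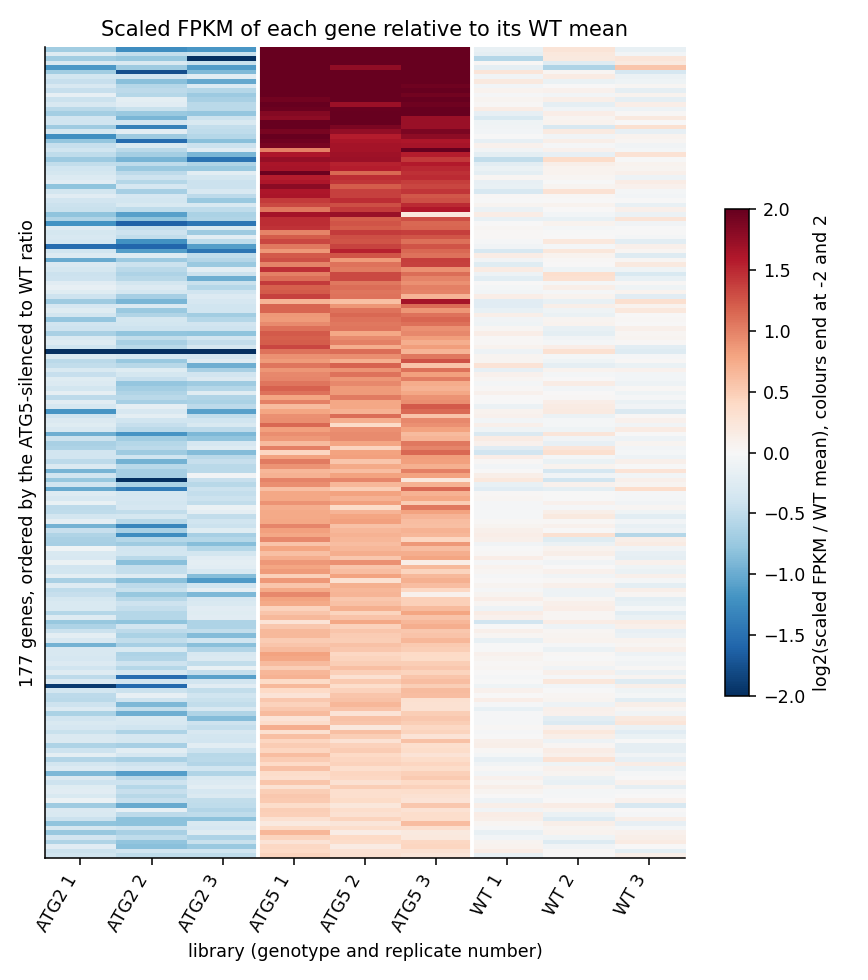
Each row is one of the 177 genes and each column a library, in the order *ATG2*-silenced, *ATG5*-silenced and WT. Colour gives the log2 of scaled FPKM over the WT mean of the gene, and rows are ordered by the ratio of *ATG5*-silenced to WT, from 12.7 at the top to 1.26 at the bottom. The blue of the *ATG2*-silenced columns is mostly pale beside the red of the *ATG5*-silenced columns.

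The step up in *ATG5*-silenced pollen was mostly larger than the step down in *ATG2*-silenced pollen. The mean of *ATG5*-silenced over WT ran from 1.26 to 12.7, with a median of 1.77 and quartiles of 1.47 and 2.32. The mean of WT over *ATG2*-silenced ran from 1.2505 to 4.74, with a median of 1.36 and quartiles of 1.28 and 1.54. The step up was the larger fold in 144 genes and the step down in 33. A step up of at least 2-fold was found in 63 genes and of at least 4-fold in 14, while 10 genes had a step down of at least 2-fold. In 41 genes a step up of 2-fold or more stood beside a step down of less than 1.5-fold. Both steps were at least 1.5-fold in 39 genes and at least 2-fold in 7. Between the 2 silenced lines themselves, *ATG5*-silenced over *ATG2*-silenced ran from 1.64 to 25.6 with a median of 2.56.

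The genotypes were separated by a narrow margin on the *ATG2* side. The ratio of the lowest WT library to the highest *ATG2*-silenced library had a median of 1.13, and it was less than 5% above 1 in 28 genes. The ratio of the lowest *ATG5*-silenced library to the highest WT library had a median of 1.44, and it was less than 5% above 1 in 6 genes. Both margins reached 25% in 22 genes. For reference, all *ATG2*-silenced libraries were below all WT libraries in 15.1% of the 15190 genes of that WT level, and all *ATG5*-silenced libraries were above all WT libraries in 26.4%. Without the limit on the folds, 668 genes had the order of the group. The mirrored order, higher in *ATG2*-silenced and lower in *ATG5*-silenced pollen under the same limits, was met by 466 genes, or 3.07%, and 423 genes were lower and 325 higher in both lines. The mirrored order was met by 1312 genes with the FPKM values as deposited, 946 with equal totals and 437 with quantile normalization, against 39, 56 and 190 for the order of the group. Both comparisons share the WT libraries, so that a WT value moves both steps of a gene, in opposite directions. A high WT value enlarges the step down and shrinks the step up, and a low one does the reverse.

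**Figure D2:**
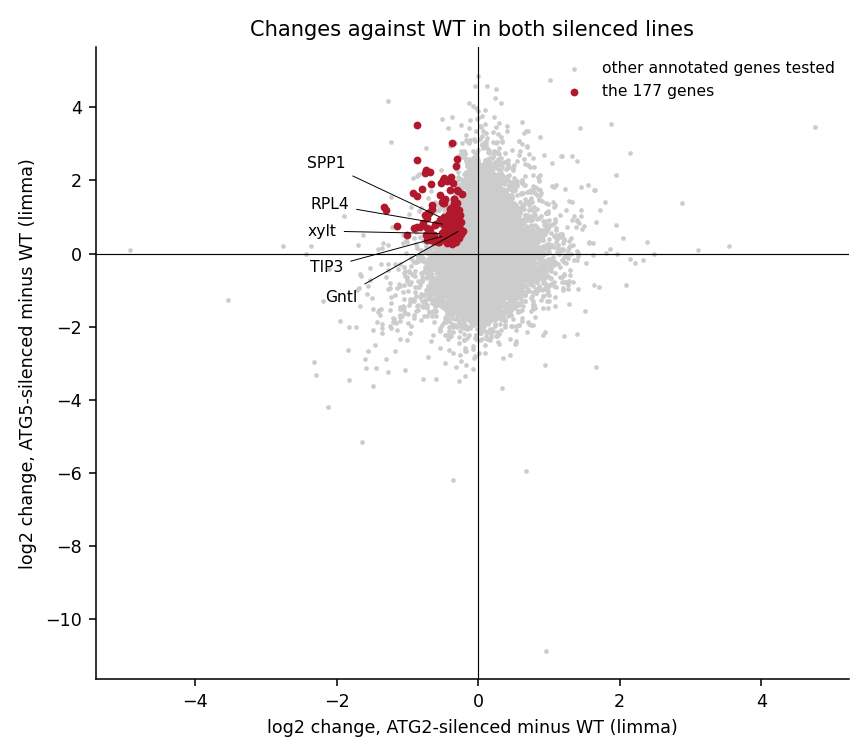
Each point is an annotated gene tested with limma, placed by its log2 change in *ATG2*-silenced (x axis) and *ATG5*-silenced pollen (y axis) against WT. The 177 genes (red) lie at the upper left, with medians of -0.39 and 0.73, because they were chosen for these changes, and 5 genes with a symbol are labelled.

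Across all 27836 genes tested with limma, each gene of the group was among those tested. In *ATG2*-silenced pollen against WT, 15 of the 177 passed an adjusted p under 0.05 in the lower direction, beside 0.41% of all genes tested, and 3 of these were also past 2-fold, beside 0.158%. In *ATG5*-silenced pollen against WT, 161 passed in the higher direction, beside 27.1% of all genes tested, and 53 were also past 2-fold, beside 14.6%. In *ATG5*-silenced against *ATG2*-silenced pollen, 177 passed in the higher direction, beside 26.8% of all genes, and 114 were also past 2-fold, beside 14.3%. The choice of the genes used these same contrasts, so nothing is read from the distance to the shares of all genes. The median log2 change of the 177 genes in *ATG2*-silenced pollen was -0.39, beside 0.03 over all genes tested, and in *ATG5*-silenced pollen it was 0.73, beside -0.03.

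The count of 15 changed with single libraries. It was 4, 3 and 5 without *ATG2*-silenced replicate 1, 2 or 3, and 4 and 3 without WT replicate 1 or 2, against 20 without WT replicate 3. The count was 9 with the FPKM values as deposited and 8 without the filter on low values. Of the 15, 11 had a step down of at least 1.5-fold, and their WT means spanned 1.15 to 290 FPKM. Most of the group was therefore lower in each *ATG2*-silenced library by an amount that did not pass the test across all genes.

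Of the 177 genes, 155 were found in the gene table of RefSeq (assembly ASM71507v2 of the cultivar K326, another cultivar than the TN90 reference of the deposited values). Among all 177, 145 (81.9%) were protein-coding, against 81.3% of the 15190 genes of that WT level, and 10 (5.65%) were long noncoding RNAs, against 6.08%. None of the 95 pseudogenes of that level was in the group, and 22 genes were not in the table. Only 6 of the 177 have a symbol, as have 350 of the 15190, and the files and the reference give no description of the others. These are therefore named by their identifiers, with no role.

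Of the genes with a symbol, 2 code for Golgi enzymes that build the sugar chains of glycoproteins. *GntI* (GeneID:107789589) codes for N-acetylglucosaminyltransferase I, which adds the sugar that opens the synthesis of complex N-glycans. It was at 0.846, 0.990 and 0.809 scaled FPKM in *ATG2*-silenced pollen, at 2.13, 2.45 and 1.68 in *ATG5*-silenced pollen, and at 1.20, 1.04 and 1.15 in WT. These are low levels, and the highest *ATG2*-silenced library lay just under the lowest WT library (0.990 against 1.04). The mean of WT over *ATG2*-silenced was 1.28 and that of *ATG5*-silenced over WT 1.84.

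*xylt* (GeneID:107795800) codes for β1,2-xylosyltransferase, which adds a xylose typical of plant N-glycans. It was at 4.51, 5.31 and 4.50 scaled FPKM in *ATG2*-silenced pollen, at 10.04, 9.49 and 11.5 in *ATG5*-silenced pollen, and at 6.86, 6.44 and 7.38 in WT. The groups were apart by 1.21-fold below WT and 1.29-fold above it, and the folds of the means were 1.44 and 1.498. A gene that shares the symbol (GeneID:107760241) was not in the group. It was at 0.564, 0.720 and 0.450 scaled FPKM in *ATG2*-silenced pollen, at 1.37, 1.30 and 1.35 in *ATG5*-silenced pollen, and at 0.622, 0.440 and 1.15 in WT. It rose in *ATG5*-silenced pollen by 0.61 ± 0.21 (SE) on the log2 scale (limma, adjusted p = 0.0374), and its change in *ATG2*-silenced pollen was -0.17 ± 0.21 (adjusted p = 0.752). With the FPKM values as deposited the rise did not pass (0.35, adjusted p = 0.200). Nor did it pass with equal totals (0.41, adjusted p = 0.154) or with quantile normalization (0.48, adjusted p = 0.0809). Without WT replicate 3, its change in *ATG2*-silenced pollen was 0.06. Whether the sequences of these genes are alike, and whether reads were split between them, was not tested, so their levels are uncertain to that extent.

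*SPP1* (GeneID:107767908) codes for sucrose-phosphate phosphatase, the enzyme of the last step of sucrose synthesis. Its level was 3.28 ± 0.482 scaled FPKM in *ATG2*-silenced pollen, 9.89 ± 1.08 in *ATG5*-silenced pollen and 4.82 ± 0.218 in WT (mean ± SD, n = 3 each). Single libraries ranged from 2.82 to 3.78, from 8.69 to 10.8 and from 4.57 to 4.99 in the same order. No genotype touched another, which the limits of the group require. The folds were 1.47 below and 2.05 above WT. *SPP2* (GeneID:107819363), a second gene of the same enzyme, was at 10.8, 13.1 and 12.2 scaled FPKM in *ATG2*-silenced pollen, at 13.3, 12.8 and 12.3 in *ATG5*-silenced pollen, and at 10.3, 8.93 and 9.39 in WT. It was above the WT libraries in both silenced lines, with log2 changes of 0.32 ± 0.10 (limma, adjusted p = 0.138) in *ATG2*-silenced and 0.41 ± 0.10 (adjusted p = 0.00671) in *ATG5*-silenced pollen. The rise in *ATG5*-silenced pollen did not pass with the values as deposited (0.06, adjusted p = 0.664). It also did not pass with equal totals (0.12, adjusted p = 0.317) or with quantile normalization (0.25, adjusted p = 0.0547). The sucrose transporter gene *SUT3*, which encodes a carrier of sucrose across the plasma membrane, had log2 changes of -0.23 ± 0.09 (adjusted p = 0.201) in *ATG2*-silenced and -0.38 ± 0.09 (adjusted p = 0.00529) in *ATG5*-silenced pollen. *NtSUT1-S*, a gene of like name, passed in neither line, with 0.13 ± 0.12 (adjusted p = 0.650) and -0.07 ± 0.12 (adjusted p = 0.633) in the same order. With the values as deposited it passed as lower in *ATG5*-silenced pollen (-0.36, adjusted p = 0.0314).

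**Figure D3:**
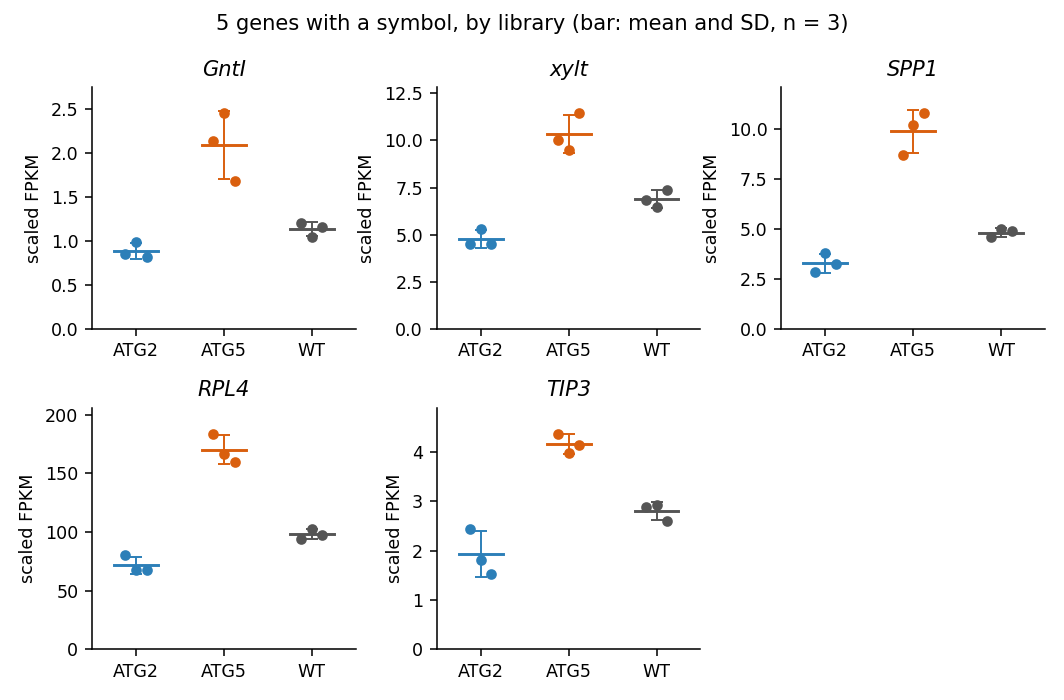
Scaled FPKM of 5 genes with a symbol in each library, with *ATG2*-silenced left, *ATG5*-silenced in the middle and WT right in each panel. Points are libraries, long bars means and whiskers the SD (n = 3). The *ATG2*-silenced points of *GntI* (0.809 to 0.990) and *TIP3* (1.53 to 2.44) come closest to the WT points.

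*TIP3* (GeneID:107761232) was at 2.44, 1.80 and 1.53 scaled FPKM in *ATG2*-silenced pollen, at 4.37, 3.98 and 4.13 in *ATG5*-silenced pollen, and at 2.89, 2.91 and 2.59 in WT. *ATG2*-silenced replicate 1 lay near WT, at a margin of 1.06, and the folds of the means were 1.45 and 1.49. Genes of like name had other patterns. *NtTIP1:1* fell in *ATG5*-silenced pollen by 1.16 ± 0.19 on the log2 scale (limma, adjusted p = 0.000969) and was at 0.46 ± 0.19 in *ATG2*-silenced pollen (adjusted p = 0.255). *TIP2* passed in neither line, with -0.01 ± 0.14 (adjusted p = 0.989) in *ATG2*-silenced and -0.16 ± 0.14 (adjusted p = 0.345) in *ATG5*-silenced pollen. With the values as deposited, *TIP2* was at 0.11 and -0.48 on the log2 scale, and the value in *ATG5*-silenced pollen passed (adjusted p = 0.0186).

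*RPL4* (GeneID:107817573) codes for protein L4 of the large ribosomal subunit and was the most abundant of the genes of the group with a symbol. It was at 80.2, 67.3 and 67.6 scaled FPKM in *ATG2*-silenced pollen, at 184, 167 and 159.9 in *ATG5*-silenced pollen, and at 94.2, 102 and 97.7 in WT. All *ATG2*-silenced libraries were below WT by at least 1.17-fold and all *ATG5*-silenced libraries above it by at least 1.56-fold, and the folds of the means were 1.37 and 1.73. The other 8 tested genes with a ribosomal protein symbol had changes of the opposite sign in both lines, several of them small or at low levels. WT means were 0.350 (*RPL3A*), 0.570 (*RPL13*) and 0.670 (*RL2*) at the low end and 42.7 scaled FPKM (*L25*) at the high end. Changes were within their standard errors for *RPL13* (0.07 ± 0.19) and *RPL3A* (0.08 ± 0.17) in *ATG2*-silenced pollen. The same held for *RL2* (-0.04 ± 0.28) and *L25* (-0.07 ± 0.13) in *ATG5*-silenced pollen. The log2 changes of the 8 genes lay between 0.07 and 0.57 in *ATG2*-silenced pollen, where none passed. They lay between -1.20 and -0.04 in *ATG5*-silenced pollen, where 3 fell (*rl17*, *RPS14* and *RPS9*). With the values as deposited *RPL10* (adjusted p = 0.0193) and *L25* (adjusted p = 0.0329) passed as lower too, and *RPL10* also did with equal totals and with quantile normalization. The direction of all 8 was kept in both lines under these 3 scalings. With 1 library left out, the sign of changes that did not pass turned in *RPL13* and *RPL3A* in *ATG2*-silenced pollen and in *L25* and *RL2* in *ATG5*-silenced pollen. The genes of like name in this and the preceding paragraphs were looked up after the values were seen.

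**Figure D4:**
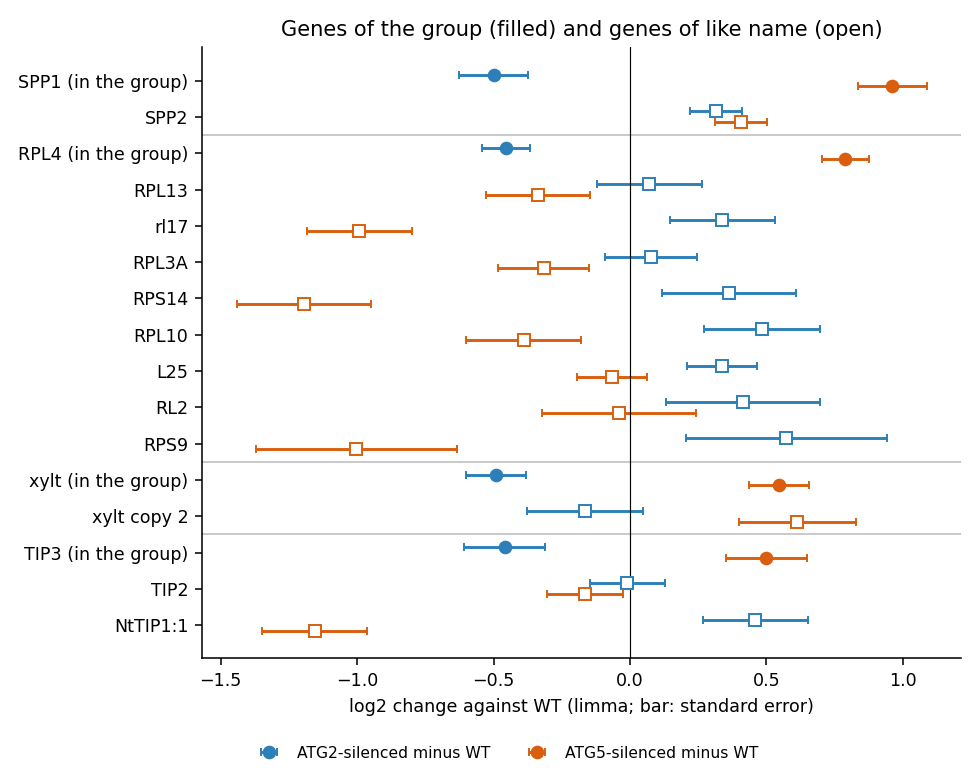
Log2 change against WT with its standard error in *ATG2*-silenced (blue) and *ATG5*-silenced pollen (orange), from limma. Filled circles are genes of the group and open squares genes of like name outside it. *RPL4* is at -0.45 and 0.79, whereas the 8 other ribosomal protein genes lie between 0.07 and 0.57 in *ATG2*-silenced and between -1.20 and -0.04 in *ATG5*-silenced pollen.

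The genes in which both steps were large have no symbol. When genes were ordered by the smaller of their 2 folds, GeneID:107827292 came first, with 6.02, 4.50 and 5.03 scaled FPKM in *ATG2*-silenced libraries, 38.4, 32.9 and 30.5 in *ATG5*-silenced libraries and 13.8, 14.4 and 13.0 in WT. Its folds were 2.65 below and 2.47 above WT, and both margins between libraries were over 2-fold. GeneID:107770883 was next, with 3.67, 3.51 and 4.94 scaled FPKM in *ATG2*-silenced libraries, 21.9, 26.8 and 25.4 in *ATG5*-silenced libraries and 10.1, 10.3 and 11.3 in WT. Its folds were 2.62 and 2.34. These are protein-coding and were 2 of the 3 genes that passed the test past 2-fold in *ATG2*-silenced pollen.

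The third of those was GeneID:107812013, with the largest step down of the group at 4.74-fold. It was at 0.188, 0.270 and 0.270 scaled FPKM in *ATG2*-silenced pollen, at 2.45, 2.49 and 1.85 in *ATG5*-silenced pollen and at 1.07, 1.42 and 0.959 in WT. The *ATG2*-silenced libraries are steps of 1 decimal above 0 in the deposited values, so the size of this fold is coarse. Its change in *ATG2*-silenced pollen did not pass without any one of *ATG2*-silenced replicates 1, 2 and 3 or WT replicates 1 and 2, where it lay between -1.18 and -1.04 on the log2 scale.

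GeneID:107778186, protein-coding, had the largest step up, 12.7-fold. It was at 2.63, 1.80 and 1.89 scaled FPKM in *ATG2*-silenced pollen, at 49.5, 57.4 and 54.7 in *ATG5*-silenced pollen and at 3.84, 5.05 and 3.83 in WT. All 3 *ATG5*-silenced libraries were more than 9-fold above the highest WT library, and *ATG2*-silenced libraries were 2.01-fold lower than WT in the mean. GeneID:107773682 had a step up of 6.27-fold with a wide spread. It was at 7.05, 9.54 and 7.19 scaled FPKM in *ATG2*-silenced pollen, at 91.6, 53.6 and 148 in *ATG5*-silenced pollen and at 13.8, 10.1 and 22.9 in WT. Its highest *ATG2*-silenced library was close to its lowest WT library, at a margin of 1.06.

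**Figure D5:**
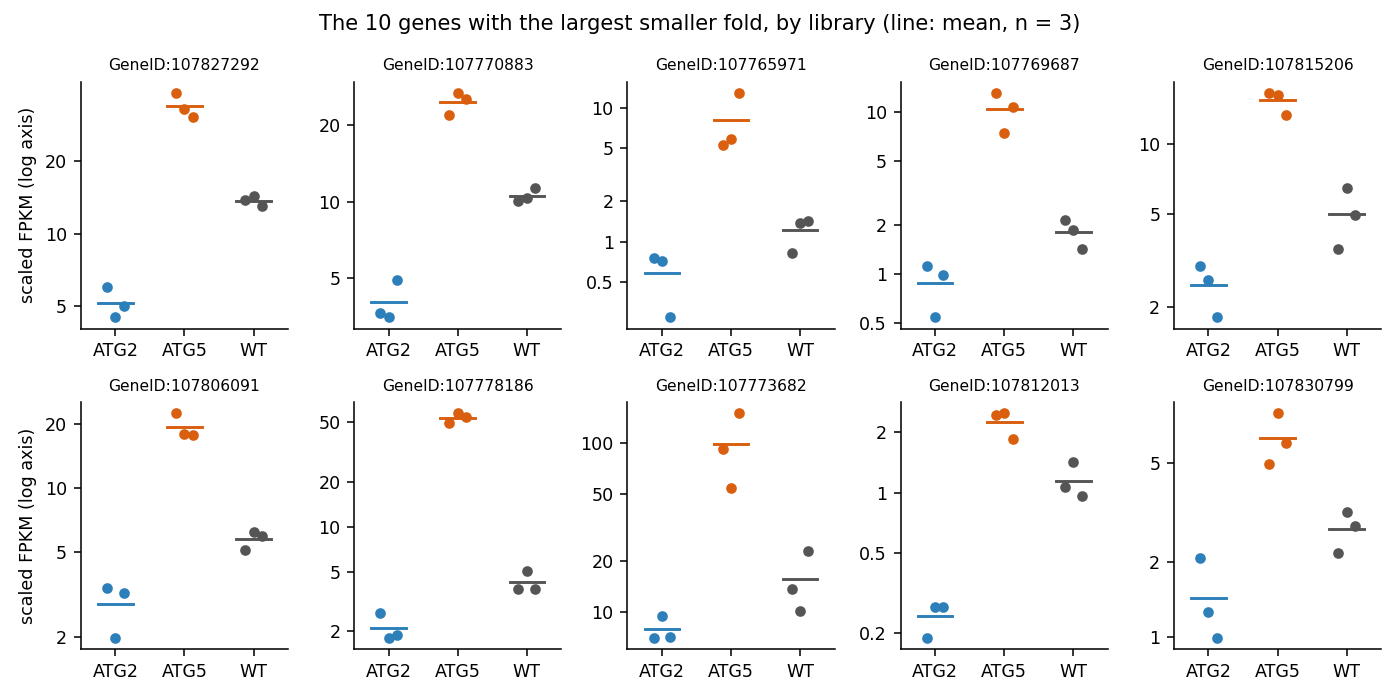
Scaled FPKM on a log axis for the 10 genes whose smaller fold is largest, with *ATG2*-silenced left, *ATG5*-silenced in the middle and WT right. Points are libraries and lines means (n = 3). The *ATG2*-silenced points are within 1.10-fold of the nearest WT point in 3 of the panels, GeneID:107765971, GeneID:107773682 and GeneID:107830799.

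Long noncoding RNAs were 3 of these 10 genes. GeneID:107765971 was at 0.752, 0.720 and 0.270 scaled FPKM in *ATG2*-silenced pollen, at 5.34, 5.93 and 13.0 in *ATG5*-silenced pollen and at 0.816, 1.39 and 1.44 in WT. GeneID:107769687 was at 1.13, 0.540 and 0.989 scaled FPKM in *ATG2*-silenced pollen, at 13.1, 7.46 and 10.8 in *ATG5*-silenced pollen and at 2.16, 1.86 and 1.44 in WT. Their steps up were 6.67-fold and 5.74-fold, with steps down of 2.09-fold and 2.06-fold at levels near 1 FPKM. GeneID:107830799 had 2.07, 1.26 and 0.989 scaled FPKM in *ATG2*-silenced libraries, 4.94, 7.91 and 6.03 in *ATG5*-silenced libraries and 2.17, 3.19 and 2.78 in WT, with folds of 1.89 and 2.32. Over the 10 long noncoding RNAs of the group, the step down had a median of 1.73 and the step up of 1.77, against 1.36 and 1.73 over its 145 protein-coding genes. The WT means of the long noncoding RNAs ran from 1.21 to 234 FPKM. All of these genes were chosen on their folds, so nothing is read from the difference between the medians. GeneID:107815206 and GeneID:107806091, both protein-coding, complete the 10, with steps down of 2.02-fold and 2.01-fold and steps up of 3.09-fold and 3.35-fold.

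The group reached into the abundant transcripts of pollen. WT means of the 177 genes ran from 1.05 to 495 FPKM with a median of 6.78, against a median of 4.91 over the 15190 genes. The share of genes that met the limits was 1.07% at a WT mean of 1 to 2 FPKM (38 genes), 0.986% at 2 to 10 (65 genes), 1.36% at 10 to 100 (57 genes) and 1.96% at 100 to 500 (17 genes). Steps down were smaller at higher levels, with medians of 1.42, 1.40, 1.32 and 1.28 in the same order of levels. These genes were chosen on their folds and values at low levels are coarse, so the trend was not tested apart from the selection. None of the 17 most abundant genes had both folds at 1.5 or above. The most abundant was GeneID:107799952, with 361, 317 and 418 scaled FPKM in *ATG2*-silenced libraries, 875, 780.4 and 798 in *ATG5*-silenced libraries and 529, 496 and 461 in WT. GeneID:107826647 was at 234, 230.0 and 216 scaled FPKM in *ATG2*-silenced pollen, at 498, 472 and 497 in *ATG5*-silenced pollen and at 298, 289 and 284 in WT, and its libraries of one genotype differed little. The other 3 of the 5 most abundant genes, GeneID:107824965, GeneID:107780963 and GeneID:107781510, had steps down of 1.26-fold to 1.32-fold and steps up of 1.32-fold to 1.46-fold. With the values as deposited, their changes in *ATG5*-silenced pollen were 0.03, 0.05 and 0.17 on the log2 scale and did not pass.

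Near the limits, the group had no sharp edge. Just inside were GeneID:107832513, GeneID:107822527 and GeneID:107763925, with steps down of 1.2505-fold to 1.2539-fold and steps up of 5.24-fold, 2.14-fold and 1.68-fold. Just outside, with steps down of 1.2483-fold to 1.2488-fold, were GeneID:107805929, the pseudogene GeneID:107758990 and GeneID:107812086, with steps up of 1.26-fold, 2.29-fold and 1.47-fold. Genes with a symbol and the same order of all libraries, but under the limit in at least 1 step, were *NtTE* (1.17 and 1.24), *cat3* (1.11 and 1.78), *cul1A* (1.11 and 1.09) and an *actin* gene (1.14 and 1.32), given as folds below and above WT. With the values as deposited, the mean of *ATG5*-silenced over WT was 0.961 for *NtTE*, 1.38 for *cat3*, 0.848 for *cul1A* and 1.02 for the *actin* gene, so that *NtTE* and *cul1A* were below WT there. It was likewise 0.976 for GeneID:107805929. *MPK11*, a mitogen-activated protein kinase gene that met the limits and was left out, was at 6.11, 5.49 and 6.47 scaled FPKM in *ATG2*-silenced pollen, at 17.7, 16.5 and 15.9 in *ATG5*-silenced pollen and at 12.9, 13.1 and 12.2 in WT. Its mean of *ATG5*-silenced over WT was 1.02 as deposited.

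Membership depended on how the libraries were scaled. The *ATG5*-silenced libraries had factors of 0.751 to 0.791, the *ATG2*-silenced libraries of 1.06 to 1.11 and the WT libraries of 0.978 to 1.04, and values were divided by them. The division raises every *ATG5*-silenced value and lowers every *ATG2*-silenced value, the same directions as the pattern of the group. With the FPKM values as deposited, 39 genes met the limits, all of them among the 177 (22.0%). Of the 177 genes, 170 still had a higher mean in *ATG5*-silenced pollen than in WT, which leaves 7 that turned, and 113 had no overlap there. All 177 still had a lower mean in *ATG2*-silenced pollen, and 118 had no overlap there. With totals made equal, 56 genes met the limits, 53 of them among the 177. With quantile normalization 190 did, and the 113 shared genes were 59.5% of these and 63.8% of the 177.

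Of the genes with a symbol, *SPP1* and *RPL4* met the limits in the values as deposited and with equal totals, and all 5 shown met them with quantile normalization. As deposited, the log2 changes of *GntI*, *xylt* and *TIP3* in *ATG5*-silenced pollen were 0.37, 0.20 and 0.18 and did not pass the test. Of the 10 genes with the largest smaller fold, 7 met them as deposited, 8 with equal totals and 10 with quantile normalization. The count of the 177 genes passing as higher in *ATG5*-silenced pollen was 101 as deposited and 107 with equal totals. Between these scalings the median log2 change of all genes tested moved from -0.03 to -0.30 in *ATG5*-silenced pollen as deposited, and from 0.03 to 0.13 in *ATG2*-silenced pollen. The single library whose absence moved the count of genes most was *ATG2*-silenced replicate 1, without which 290 genes met the limits. With a library left out, fewer values have to be apart, so the limits are looser.

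The genes of the group varied together only weakly within a genotype. Deviations from the genotype means were correlated across the 9 libraries. Over the 15576 pairs of the 177 genes, the correlation had a median of 0.08 and quartiles of -0.25 and 0.41. Over the genes of the same WT level the median was 0.002 and the quartiles -0.33 and 0.33. The limit that genotypes do not overlap also used these deviations. These points share the libraries and the scaling factors, and the values describe a weak relation. *ATG2*-silenced replicate 1 was the highest library of its genotype in 89 of the 177 genes (50.3%), against 29.5% of the 15190 genes, and *ATG5*-silenced replicate 1 likewise in 89 (50.3%), against 36.0%. The median deviation of the 177 genes from the genotype mean was 0.06 on the log2 scale in each of these libraries.

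In the gene order of RefSeq, used for neighbourhood only, 155 of the genes could be placed among 13350 genes of the same WT level. Of the 310 places beside them, 2 (0.645%) were held by genes of the group, which were 1.16% of the placed genes. They form 1 adjacent pair, the long noncoding RNA GeneID:107792124 and GeneID:107767581. The log2 change of GeneID:107792124 in *ATG5*-silenced pollen was 0.31, but -0.04 with the values as deposited. Of 306 tested neighbours outside the group, 2 (0.654%) passed as lower in *ATG2*-silenced pollen, beside 0.41% of all genes tested, and 79 (25.8%) as higher in *ATG5*-silenced pollen, beside 27.1%. Their median log2 changes were -0.04 and -0.12. These shares are near those of all genes.

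Pathway lists drawn from gene symbols held 73 genes of the WT level of the group, and 2 of these (2.74%) were in it, beside 1.17% of all genes of that level. Of all genes tested, 0.41% passed as lower and 0.672% as higher in *ATG2*-silenced pollen, and 24.9% as lower and 27.1% as higher in *ATG5*-silenced pollen. Sugar and starch genes had 1 (*SPP1*) of 10 tested, and of these 10, none passed in *ATG2*-silenced pollen while 4 fell and 3 rose in *ATG5*-silenced pollen. Transport genes had 1 (*TIP3*) of 5 tested, with none passing in *ATG2*-silenced pollen and 2 down and 2 up in *ATG5*-silenced pollen. The other lists held no gene of the group. Among 13 tested chaperone genes 2 fell in *ATG2*-silenced and 9 in *ATG5*-silenced pollen, and none rose. Among 28 kinase genes, 1 fell and 1 rose in *ATG2*-silenced pollen, and 10 fell and 9 rose in *ATG5*-silenced pollen. Among 15 transcription factor genes, none passed in *ATG2*-silenced pollen, and 4 fell and 2 rose in *ATG5*-silenced pollen. Among 4 calcium signalling genes, none passed in *ATG2*-silenced pollen, and 2 fell and 1 rose in *ATG5*-silenced pollen. The 12 autophagy genes tested include the silenced genes themselves. Of them, 1 fell in *ATG2*-silenced pollen, which was *ATG2* (-1.11 on the log2 scale, limma, adjusted p = 0.0113). In *ATG5*-silenced pollen 4 fell, *ATG5* among them (-1.38, adjusted p = 0.00019), and 1 rose.

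Markers of pollen and of other tissues were measured beside the group. The summed level of 7 pollen genes lay between 26566 and 28831 scaled FPKM in *ATG2*-silenced libraries, between 51977 and 60018 in *ATG5*-silenced libraries and between 27660 and 28818 in WT libraries, and none of these genes was at 0 in all libraries. The sum of 14 genes of green tissue was 2.70 to 3.42, 1.76 to 2.98 and 3.74 to 7.55 in the same order, with 1 gene at 0 throughout. That of 9 root genes was 0.899 to 1.03, 0.880 to 1.77 and 0.971 to 1.246, with 3 at 0 throughout, and that of 3 pistil genes 0.180 to 0.450, 0.200 to 0.472 and 0.399 to 0.575. No gene of the list for the anther wall was matched. The pollen sum was higher in *ATG5*-silenced than in WT libraries, but of its 7 genes 4 passed as lower and 3 as higher there, and none passed in *ATG2*-silenced pollen. Their part in the pattern of the group was not tested.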

How the data were processed

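RNA was extracted with the MiniBEST kit, and MGIEasy libraries were run on an MGIseq2000. The authors filtered reads with SOAPnuke, mapped them to Ntab-TN90 with HISAT2 and Bowtie2, and quantified genes with RSEM, in versions not given in the sources used here. The deposited tables, 1 per library, give FPKM, in which the authors corrected for transcript length and mapped fragments. A line without a value, 1 in each table, was dropped. No counts were used here, so the DESeq2 test of the study was not repeated.

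Scaling factors were medians of ratios, taken over 14192 genes that exceeded 1 FPKM in each of the 9 libraries. For tests, log2(scaled FPKM + 0.5) was fitted with limma 3.58.1 and statmod 1.5.0 in R 4.3.3 (lmFit, eBayes with trend and robust, all libraries in one fit) over the 27836 genes that reached 0.5 FPKM in 3 or more libraries. Fold changes on this scale understate the change of low genes. Two-sided p-values were adjusted for each contrast over all genes tested (Benjamini-Hochberg). A pass is an adjusted p under 0.05, and past 2-fold also a fold above 2 or below 0.5. Counts and plots were made with Python 3.11.15, pandas 2.3.3, numpy 2.4.6 and matplotlib 3.10.9. The p-values set differences between genotypes against the spread between these libraries. They do not cover differences between independent lines, whose number is not given. The fit was tried on simulated data. The simulation drew independent values with no difference in scale between libraries, so it does not bear on the choice of scaling.

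The group and the lists were chosen with earlier results of these data known. Genes named are those with a symbol, 1 of which is not reported here, the 10 with the largest smaller fold, the 5 with the highest WT mean and those nearest the fold limit. Symbols come from RefSeq, which matched 53952 of the annotated identifiers. Lists were drawn by the first letters of symbols and can catch genes of other function. Alternatives were other scalings, pseudocounts, filters, fold limits, rounding, a replicate block and each library left out. Protein, promoter and paralog sequences were not used here.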

Additional observations from a re-analysis of the deposited data

How the results depend on the processing

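The number of genes that met the limits, 177, was 39 with FPKM as deposited and 56 with FPKM rescaled to equal totals. It was 39 with a fold limit of 1.5 and 668 with no fold limit. With each library left out in turn it was 186 to 290, under limits that are looser because fewer values have to be apart. The 15 genes of the group that passed in *ATG2*-silenced pollen were 9 as deposited and 8 without a filter on low values, and 3 to 20 with a library left out. The 161 that passed in *ATG5*-silenced pollen were 101 as deposited and 107 with equal totals, and the 53 past 2-fold were 31 and 33. Of the 114 past 2-fold between the silenced lines, 56 and 73 were found under the same 2 scalings. The cause was not tested beyond the change of scale itself. Deviations of same-numbered libraries correlated at -0.04 to 0.05, and only 2 of 9 libraries matched their own number best. No shift shared by replicate number was seen, but these values cannot show whether the libraries were handled in numbered sets. With the replicate block, 9 genes passed in *ATG2*-silenced pollen, 160 in *ATG5*-silenced pollen, and 53 were past 2-fold there. The other counts kept within 1.5 times the values in the text under pseudocounts of 0.1 and 1, a filter of 1 FPKM, rounding to 1 decimal and quantile normalization. For the genes of the group named by symbol, by largest smaller fold or by WT level, no direction turned, 36 values lost and 5 gained their pass, and 715 did neither. Of 962 values of 27 other named genes, 17 turned, in 10 genes. In *ATG5*-silenced pollen these were GeneID:107805929 (-0.03), GeneID:107792124 (-0.04), *NtTE* (-0.06) and *cul1A* (-0.24) as deposited, *cul1A* also with equal totals (-0.16) and quantile normalization (-0.01), and *L25* and *RL2* with a library left out. In *ATG2*-silenced pollen they were *TIP2* as deposited (0.11) and with equal totals (0.06), and *TIP2*, *RPL13*, *RPL3A* and *xylt* outside the group with a library left out. Alternatives on closest paralogs and on sequence features were not run. Added after seeing the data were the direction of the group in the deposited values, the unannotated transcripts, the neighbours, the other named genes and the scalings of the mirrored order. The study states only a minimum of read pairs per library. Without read counts, neither the depth of a single library nor limits of counting error can be given.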

Other observations

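A small share of the transcripts outside the annotation showed the same order of genotypes. Of 4590 unannotated transcripts with a WT mean of 1 to 500 FPKM, 104 (2.27%) met the limits used for annotated genes. The share was 1.17% among annotated genes of that WT level. In the values as deposited, 40 of the unannotated transcripts met the limits. Their median step down was 1.65-fold and their median step up 2.46-fold, at a median WT mean of 3.002 FPKM. The 3 with the largest smaller fold were low or at 0 in *ATG2*-silenced pollen. One of them was at 1.60, 0.9002 and 1.44 scaled FPKM in *ATG2*-silenced pollen, at 21.1, 16.4 and 14.3 in *ATG5*-silenced pollen and at 4.18, 4.05 and 4.70 in WT, with folds of 3.28 below and 4.01 above WT. Another was at 12.2, 20.7 and 40.01 scaled FPKM in *ATG5*-silenced pollen and at 1.62, 4.15 and 3.07 in WT, and 2 of its 3 *ATG2*-silenced libraries were listed at 0. These transcripts have no name or biotype, and they were selected on these values.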
